A study of Sus scrofa with 4 samples.

Results

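The tumour necrosis factor (TNF) ligand and receptor superfamilies were described in ovaries of leptin overexpression and wild type (WT) pigs. Members were the rows of the deposited gene table whose symbol began with TNFSF or TNFRSF, joined by 22 further symbols of ligands, receptors and adaptor proteins. The rule found 44 of 22309 rows, which carried 43 symbols: 17 ligands, 19 receptors and 8 adaptors. Of the 22 further symbols 20 were found, and FAS and EDA2R were not found by symbol. The series was titled as a model of female infertility, and its single comparison asks how the ovary transcriptome differs with leptin overexpression. Poly(A) RNA of whole ovary in diestrus was sequenced from 2 leptin overexpression and 2 WT samples of Sus scrofa. The leptin overexpression pigs were second-generation offspring descended from a cloned transgenic boar line crossed with Duroc, Landrace and Yorkshire sows. The promoter of the transgene, the age of the animals and their number were not given in the sources used here. Nothing in the labels states that the 2 libraries of a genotype are from different pigs. The p-values therefore reflect the spread between libraries, which could be technical.

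TNF family ligands are membrane or shed proteins that act as trimers on cysteine-rich receptors. Receptors with a death domain gather the adaptors FADD, TRADD and RIPK1 and can start caspase-driven cell death, whereas most others bind TRAF proteins and switch on NF-kB and JNK signalling. Decoy receptors bind a ligand without passing a signal on. In the ovary the family is best known from follicle atresia and the regression of the corpus luteum, and in lymphoid cells from co-stimulation and survival.

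Leptin itself, the gene behind the genotype labels, had 55 and 124 counts in the leptin overexpression libraries, against 0 and 3 counts in the WT libraries (adjusted p = 0.198, edgeR). Totals were 16493113 to 16797511 counts per library. Mitochondrially encoded genes took 15.1% and 16.4% of the counts in the leptin overexpression libraries, against 6.89% and 12.9% in the WT libraries. The libraries did not group by genotype: Pearson's r of log2 CPM (counts scaled to a common library total, here with TMM factors) over genes was 0.936 between the leptin overexpression libraries, 0.917 between the WT libraries and 0.941 between leptin overexpression replicate 1 and WT replicate 2. Summed T and NK cell markers came to 18.0 and 14.7 CPM in the leptin overexpression libraries, against 38.8 and 49.1 CPM in the WT libraries, and 7 of 11 markers lay lower in both leptin overexpression libraries. CD3G was at 0 in both leptin overexpression libraries and in WT replicate 2. Summed B and plasma cell markers came to 18.2 and 25.5 CPM, against 34.9 and 65.2 CPM in WT, with 5 of 7 markers lower; POU2AF1 was at 0 in both leptin overexpression libraries and in WT replicate 1. Oviduct and ciliated epithelium markers summed to 34.3 and 25.2 CPM, against 507 and 243 CPM in WT, and all 7 lay lower in the leptin overexpression libraries. Surface epithelium markers came to 24.2 and 86.2 CPM, against 199 and 113 CPM in WT, with 5 of 6 lower, and smooth muscle and pericyte markers to 1080 and 1040 CPM, against 1560 and 1720 CPM in WT, with 7 of 9 lower. Not all of the 15 marker lists ran lower. Stroma and theca externa markers were 11900 and 7530 CPM in leptin overexpression, against 6980 and 6510 CPM in WT, with 2 of 7 higher. Theca interna markers came to 17500 and 24200 CPM, against 7240 and 17000 CPM in WT, with 1 of 4 higher. Their median log2 fold change (leptin overexpression minus WT) was -0.05, with 2 of 4 below 0, so the sum does not stand for each marker. Of the 13937 genes tested below, 22.9% lay lower and 22.2% higher in both leptin overexpression libraries. Macrophage and dendritic cell markers overlapped in sum, at 452 and 374 CPM against 439 and 642 CPM in WT. The part of these differences in the members' values was not tested. In bulk tissue a change in cell number cannot be told apart from one in RNA per cell.

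No member passed the test across the 13937 tested genes. The test was edgeR's quasi-likelihood test with Benjamini-Hochberg adjustment, a positive log2 fold change means a higher level in leptin overexpression, and the threshold was an adjusted p of 0.05. Of the 44 members, 32 had enough counts to be tested, and the 12 that did not were 6 ligands and 6 receptors. The count past the threshold was 0 of 32 in either direction, and over all tested genes 4 (0.0287%) were called higher and 0 (0.0%) lower in leptin overexpression. At an unadjusted p under 0.05, 1 member, TNFSF18, lay higher and 0 lay lower, against 4.04% and 5.32% of all tested genes. DESeq2 also called 1 member higher, TNFSF18, and 0 lower, against 0.718% and 1.47% of all tested genes. On log2(FPKM + 1), where FPKM are the deposited counts scaled to transcript length and depth, limma called 0 members in either direction, against 0.646% higher and 2.68% lower of all tested genes.

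Most members nonetheless sat a little lower in the leptin overexpression ovaries. The log2 fold change was below 0 for 26 of 32 tested members (81.2%), against 50.7% of all tested genes, and above 0 for 6 members, against 49.3%. Its median was -0.55 over the members and -0.01 over all tested genes. Both leptin overexpression libraries lay below both WT libraries for 16 of the 32 members, against 22.9% of all tested genes, and above them for 4 members (12.5%), against 22.2%. Those 4 were TNFSF18, TNFSF4, TNFRSF12A and TRAF6. The median log2 fold change was -0.57 over 11 ligands, -0.31 over 3 death domain receptors, -0.56 over 9 TRAF-binding receptors and -0.39 over 8 adaptors. Leptin overexpression replicate 2 held the lowest CPM of the 4 libraries for 22 of 32 members (68.8%), against 34.3% of all tested genes, and WT replicate 1 held it for 5, against 28.3%. Leptin overexpression replicate 1 held the lowest CPM for 3 members, against 15.2%, and WT replicate 2 for 2, against 22.2%. The highest CPM was in leptin overexpression replicate 1 or 2 for 3 members each, against 13.1% and 35.7% of all tested genes. It was in WT replicate 1 for 10 members, against 28.5%, and in WT replicate 2 for 16, against 22.7%. The difference between the replicates of leptin overexpression exceeded that between the group means for 18 members, against 57.6% of all tested genes, and the difference between the WT replicates did so for 10 members, against 47.7%. The members' median log2 fold change was -0.63 without leptin overexpression replicate 1, -0.35 without leptin overexpression replicate 2 and -0.40 or -0.41 when WT replicate 1 or 2 was left out. The filter on low counts kept 5 members that reached 10 counts in both WT but not in both leptin overexpression libraries, and 1 with the reverse pattern. Among the 25 members with at least 10 counts in all 4 libraries, 21 had a log2 fold change below 0 and the median was -0.54.

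**Figure D1:**
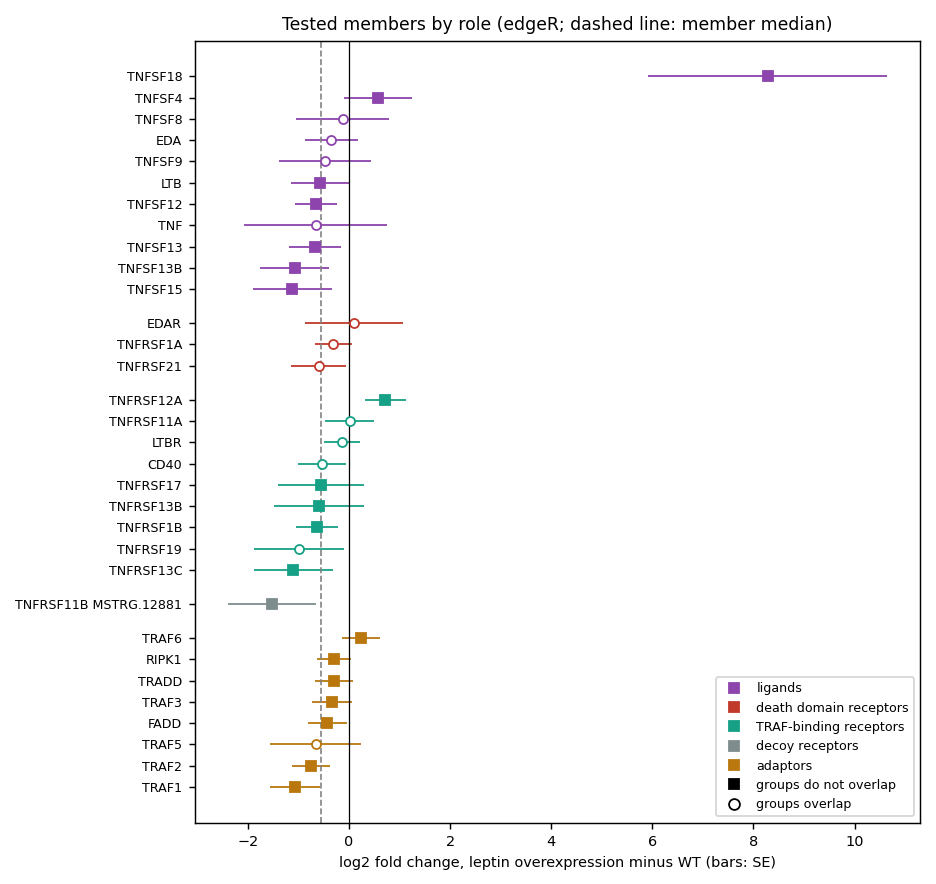
Log2 fold change (leptin overexpression minus WT) with its standard error for the 32 tested members, by role, from edgeR. Most points lie left of 0, 26 of 32 in all, and TNFSF18 at 8.28 stands far to the right with a standard error of 2.37.

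**Figure D2:**
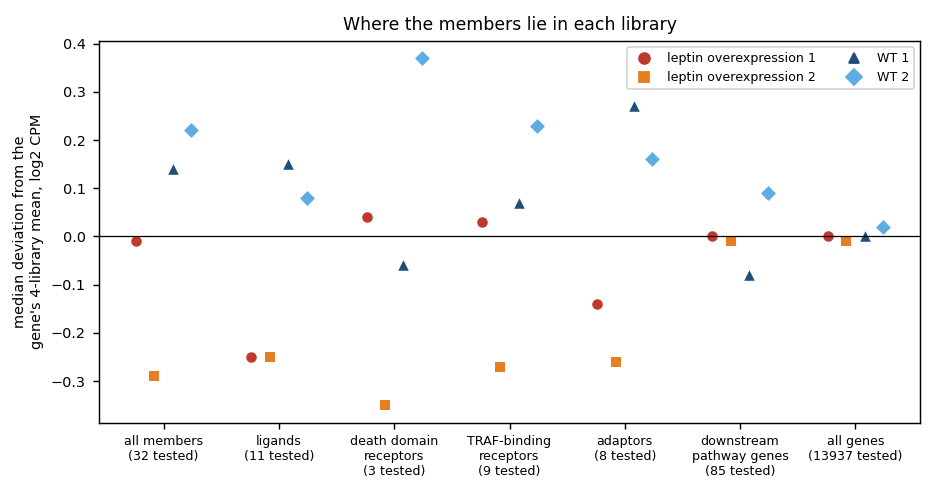
Median over the tested genes of each role class, of the downstream pathway genes and of all tested genes of each gene's deviation from its own mean over the 4 libraries, in log2(CPM + 0.5), leptin overexpression libraries left of WT libraries. The median over all members was -0.01 and -0.29 in the leptin overexpression libraries, against 0.14 and 0.22 in the WT libraries.

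Among the ligands, TNFSF18 had by far the widest range. TNFSF18 (ENSSSCG00000015487), the ligand of the lymphocyte receptor TNFRSF18, also known as GITR, had 35 and 1938 counts in the leptin overexpression libraries, against 6 and 3 counts in the WT libraries. These were 2.29 and 145 CPM in leptin overexpression, against 0.272 and 0.179 CPM in WT. The groups did not overlap, but leptin overexpression replicate 2 alone held nearly all of the ligand's reads. Its log2 fold change was 8.28 ± 2.37 (SE; unadjusted p = 0.0201, adjusted p = 0.433, edgeR), and the adjusted p from DESeq2 was 0.00506. Leptin overexpression replicate 1 set against the pooled WT libraries gave a ratio of 9.85 (exact 95% interval 4.64 to 23.3, counting error only), and replicate 2 gave 624 (328 to 1370). Without replicate 2 the log2 fold change was 3.31, and without replicate 1 it was 9.27, with an adjusted edgeR p of 0.0206. In leptin overexpression replicate 2 this ligand made up 23.1% of the CPM summed over all members. The row of its receptor TNFRSF18 carried no symbol in the table and was named from the reference table of gene names. That row had 0 counts in both leptin overexpression libraries, against 1 and 15 counts in the WT libraries, and was too low to be tested.

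In the RefSeq annotation (assembly Sscrofa11.1) TNFSF18 lies between FASLG and LOC100516636, and TNFSF4 follows. FASLG, the death ligand of FAS, had 0 and 2 counts in leptin overexpression and 1 and 3 counts in WT. TNFSF4 (ENSSSCG00000015488), the ligand of the T cell co-stimulator TNFRSF4, had 3.20 and 2.99 CPM in leptin overexpression, against 1.72 and 2.45 CPM in WT. Its log2 fold change was 0.57 ± 0.68 (adjusted p = 0.781, edgeR), and on the deposited FPKM the groups overlapped. The large count of TNFSF18 in leptin overexpression replicate 2 was thus not shared by the neighbouring ligand genes in that library.

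The ligand TNFSF12, known as TWEAK, which acts in tissue repair and on blood vessels, had the highest FPKM of the ligands in both WT libraries. TNFSF12 (ENSSSCG00000040188) had 18.7 and 11.7 CPM in leptin overexpression, against 21.0 and 27.2 CPM in WT, with a log2 fold change of -0.66 ± 0.42 (adjusted p = 0.607, edgeR). Its receptor TNFRSF12A (ENSSSCG00000027130), also called FN14 and known as an injury-induced receptor, ran the other way. TNFRSF12A had 71.1 and 130 CPM in leptin overexpression, against 56.6 and 65.2 CPM in WT, a log2 fold change of 0.72 ± 0.41 (adjusted p = 0.593, edgeR). Neither gene passed the test although neither overlapped between groups in CPM. Without leptin overexpression replicate 2 the log2 fold change of TNFRSF12A was 0.24 and that of TNFSF12 was -0.35, and without replicate 1 they were 1.11 and -1.02. On the deposited FPKM, which was not TMM-scaled, TNFRSF12A overlapped, at 75.6 and 121 in leptin overexpression and 87.0 and 74.9 in WT, while TNFSF12 stayed apart at 11.4 and 6.05 against 18.1 and 17.5.

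Ligands of B cell survival receptors lay lower in the leptin overexpression libraries. TNFSF13B (ENSSSCG00000009542), or BAFF, had 1.5 and 1.94 CPM in leptin overexpression, against 3.45 and 3.82 CPM in WT, with a log2 fold change of -1.08 ± 0.68 (adjusted p = 0.607, edgeR). Its neighbour in function TNFSF13, or APRIL, had 8.36 and 4.33 CPM in leptin overexpression, against 11.3 and 9.01 CPM in WT, with -0.67 ± 0.51 (adjusted p = 0.661, edgeR). In both genes the leptin overexpression libraries lay below the WT libraries without overlap. Their receptors did the same: TNFRSF13C (ENSSSCG00000039074), the BAFF receptor, had 2.02 and 0.822 CPM in leptin overexpression, against 2.45 and 3.70 CPM in WT, with -1.10 ± 0.78 (adjusted p = 0.644, edgeR). TNFRSF13B, or TACI, had 0.783 and 0.672 CPM in leptin overexpression, against 1.32 and 0.895 CPM in WT. TNFRSF17, the plasma cell receptor BCMA, had 0.979 and 0.822 CPM in leptin overexpression, against 1.18 and 1.49 CPM in WT. None of these 5 genes passed the test; their groups did not overlap, which held in that direction for 22.9% of all tested genes. A further row described as a TNFRSF17 isoform, MSTRG.11722, overlapped, at 1.18 and 0.523 CPM in leptin overexpression and 0.454 and 1.61 CPM in WT. Without leptin overexpression replicate 2 the log2 fold change of TNFSF13 was -0.26 and that of TNFRSF13C was -0.59, and without replicate 1 they were -1.21 and -1.88. The summed B and plasma cell markers given above lay lower in the leptin overexpression libraries as well, with 5 of 7 markers lower. JCHAIN held most of that gap, at 4.24 and 6.72 CPM in leptin overexpression, against 19.0 and 39.3 CPM in WT. The B cell marker CD79A overlapped, at 12.6 and 17.9 CPM in leptin overexpression and 12.3 and 14.0 CPM in WT.

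TNF, the founding cytokine of the family, was barely detected in any ovary. It had 0 and 11 counts in leptin overexpression, against 20 and 6 counts in WT, and the groups overlapped (log2 fold change -0.66 ± 1.41, adjusted p = 0.881, edgeR). Its direction turned to 0.38 without leptin overexpression replicate 1 and to 0.13 without WT replicate 1, so no direction is given for it. Its lymphotoxin relatives lie beside it in the RefSeq annotation. LTA had 0 and 4 counts in leptin overexpression and 7 and 5 counts in WT and was not tested. LTB, the membrane-anchored lymphotoxin chain, had 3.46 and 3.44 CPM in leptin overexpression, against 5.76 and 4.48 CPM in WT, with -0.57 ± 0.57 (adjusted p = 0.738, edgeR).

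Among the other ligands TNFSF15 (ENSSSCG00000034087), or TL1A, an endothelial and T cell cytokine, had 1.37 and 0.971 CPM in leptin overexpression, against 3.27 and 1.85 CPM in WT. Its groups did not overlap, and its log2 fold change was -1.12 ± 0.79 (adjusted p = 0.641, edgeR). EDA, the ligand of skin appendage development, had 13.6 and 6.28 CPM in leptin overexpression, against 9.71 and 15.6 CPM in WT, and overlapped. The T cell ligands TNFSF9 and TNFSF8 overlapped as well, with log2 fold changes of -0.47 and -0.13 that turned to 0.52 without WT replicate 2 and to 0.11 without leptin overexpression replicate 2. EDA turned likewise, to 0.12 without leptin overexpression replicate 2.

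The untested ligands held few reads. CD70, the ligand of CD27, had 21 and 6 counts in leptin overexpression, against 1 and 7 counts in WT, a pooled ratio of 4.56 (exact 95% interval 2.02 to 11.6, counting error only). In CPM its groups lay just apart, at 1.37 and 0.448 in leptin overexpression against 0.0454 and 0.418 in WT, and they overlapped in counts and in FPKM. TNFSF11, or RANKL, which drives osteoclast formation, had 2 and 21 counts in leptin overexpression and 3 and 9 counts in WT. Here leptin overexpression replicate 2 was the highest library and replicate 1 the lowest. CD40LG, the T cell ligand of CD40, had 3 and 5 counts in leptin overexpression and 7 and 14 counts in WT, and TNFSF14, or LIGHT, had 0 and 1 against 6 and 3.

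The tested death domain receptors all overlapped between groups. TNFRSF1A (ENSSSCG00000000708), the widely expressed TNF receptor, had 84.5 and 64.4 CPM in leptin overexpression, against 78.6 and 107 CPM in WT, with -0.31 ± 0.37 (adjusted p = 0.780, edgeR). TNFRSF21 (ENSSSCG00000001727), or DR6, a death receptor studied in neurons and lymphocytes, had 48.0 and 19.0 CPM in leptin overexpression, against 31.5 and 70.4 CPM in WT. Each group of TNFRSF21 held a high and a low library, so the spread within a genotype was wide, and the log2 fold change of -0.60 ± 0.54 (adjusted p = 0.709, edgeR) became 0.07 without WT replicate 2. EDAR, the receptor of EDA, had 0.457 and 0.971 CPM in leptin overexpression, against 0.680 and 0.656 CPM in WT (0.09 ± 0.97, adjusted p = 0.981, edgeR; -0.03 with upper-quartile factors). NGFR, the low-affinity neurotrophin receptor, had 5 and 1 counts in leptin overexpression and 17 and 2 in WT, and TNFRSF25, the receptor of TNFSF15, had 3 and 0 against 2 and 5. Neither was tested.

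Among TRAF-binding receptors TNFRSF1B (ENSSSCG00000022208), the TNF receptor of immune and endothelial cells, had 62.9 and 31.0 CPM in leptin overexpression, against 79.5 and 65.6 CPM in WT. The groups did not overlap, yet leptin overexpression replicate 1 lay close to WT replicate 2, and the log2 fold change was -0.63 ± 0.42 (adjusted p = 0.625, edgeR). Without leptin overexpression replicate 2 it was -0.19, and without replicate 1 it was -1.21. Summed blood endothelium markers were 970 and 439 CPM in leptin overexpression and 784 and 1430 CPM in WT, and their part in this value was not tested. LTBR (ENSSSCG00000000706), the lymphotoxin beta receptor of stromal cells, had 68.0 and 53.4 CPM in leptin overexpression, against 59.4 and 74.2 CPM in WT. It overlapped, with a log2 fold change of -0.14 ± 0.36 (adjusted p = 0.906, edgeR) that turned to 0.04 without leptin overexpression replicate 2 and to 0.01 without WT replicate 2.

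CD40, the receptor by which T cells help B cells and macrophages, had 9.53 and 6.20 CPM in leptin overexpression, against 9.44 and 13.5 CPM in WT. TNFRSF11A, or RANK, had 11.8 and 8.37 CPM in leptin overexpression, against 7.49 and 12.5 CPM in WT, a log2 fold change of 0.01 (-0.07 with upper-quartile factors). TNFRSF19, also called TROY, had 3.79 and 0.523 CPM in leptin overexpression, against 5.49 and 3.16 CPM in WT. All 3 receptors overlapped between the groups. The T cell co-stimulators were too low to be tested, and each of the 3 lay lower in both leptin overexpression libraries. How often genes at such low counts do so was not counted, as the shares given here are of tested genes. TNFRSF9, or 4-1BB, had 5 and 2 counts in leptin overexpression, against 18 and 10 counts in WT. The pooled ratio was 0.338 (exact 95% interval 0.125 to 0.792, counting error only). Leptin overexpression replicate 1 alone gave 0.452 (0.136 to 1.19) against the pooled WT libraries, and replicate 2 gave 0.207 (0.0239 to 0.821). CD27 had 0 and 2 counts in leptin overexpression, against 11 and 10 counts in WT. TNFRSF4, or OX40, had 0 counts in both leptin overexpression libraries, against 7 and 10 counts in WT. The pooled WT level of 0.438 CPM was 4.19-fold the floor of 3 counts over the leptin overexpression group. That value leaves out the counting error of the WT counts. The summed T and NK cell markers lay lower in the same libraries.

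The decoy receptor TNFRSF11B, osteoprotegerin, which binds RANKL, was held in 2 rows of assembled genes. MSTRG.12881 had 2.48 and 0.523 CPM in leptin overexpression, against 2.68 and 6.09 CPM in WT, with -1.53 ± 0.87 (adjusted p = 0.597, edgeR). Leptin overexpression replicate 2 was the lowest library and WT replicate 2 the highest, and the value was -0.80 without the lowest and -0.84 without the highest. It was -3.04 without leptin overexpression replicate 1. MSTRG.12882 had 8 counts in leptin overexpression replicate 1 and 0 in the other 3 libraries, and how reads were shared between these rows is uncertain.

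**Figure D3:**
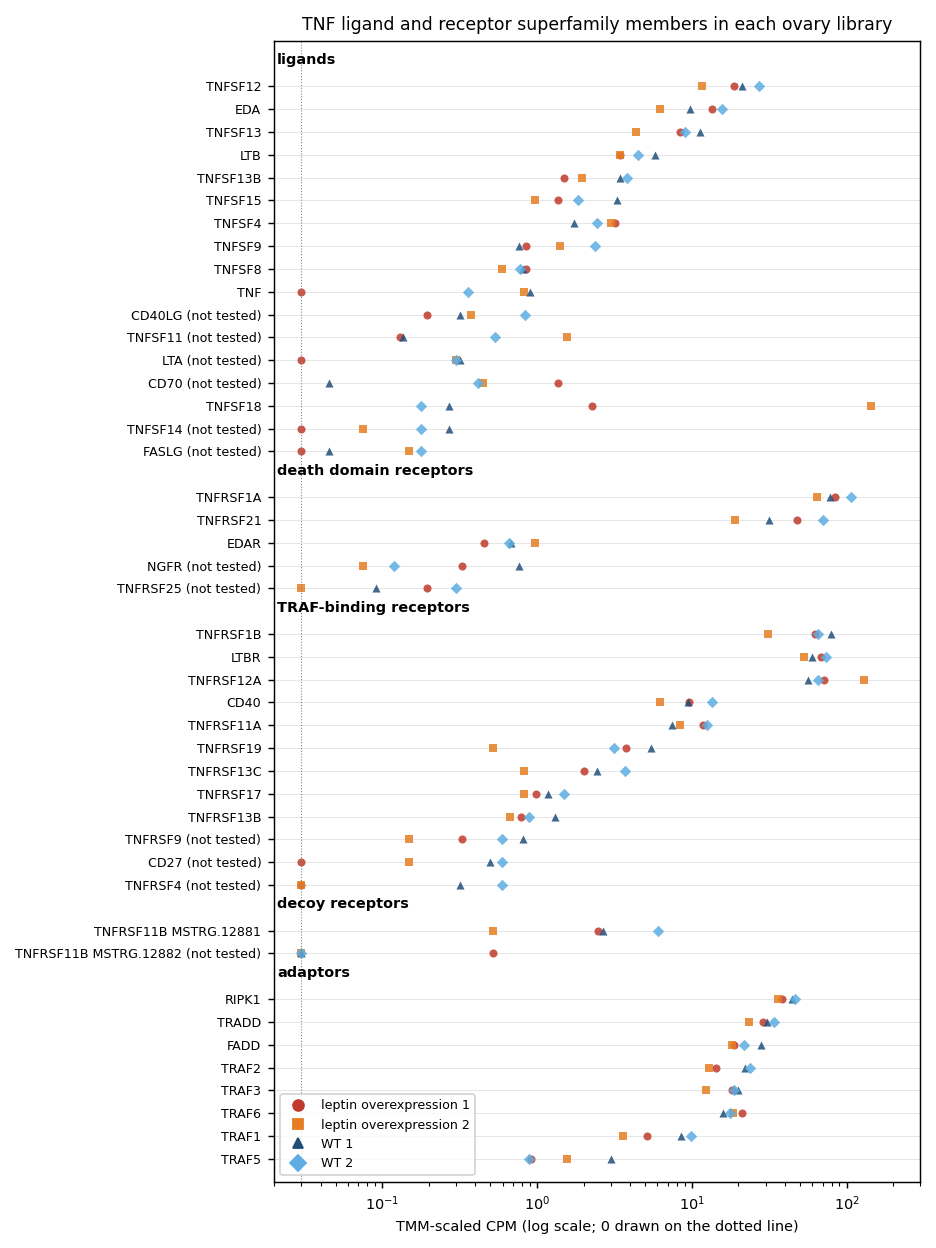
TMM-scaled CPM (log axis, values of 0 on the dotted line) of all 44 members in each library, by role and sorted within a role by mean CPM over the WT libraries. TNFSF18 spans 0.179 to 145 CPM, and for most tested members leptin overexpression replicate 2, the orange square, is the lowest point.

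**Figure D4:**
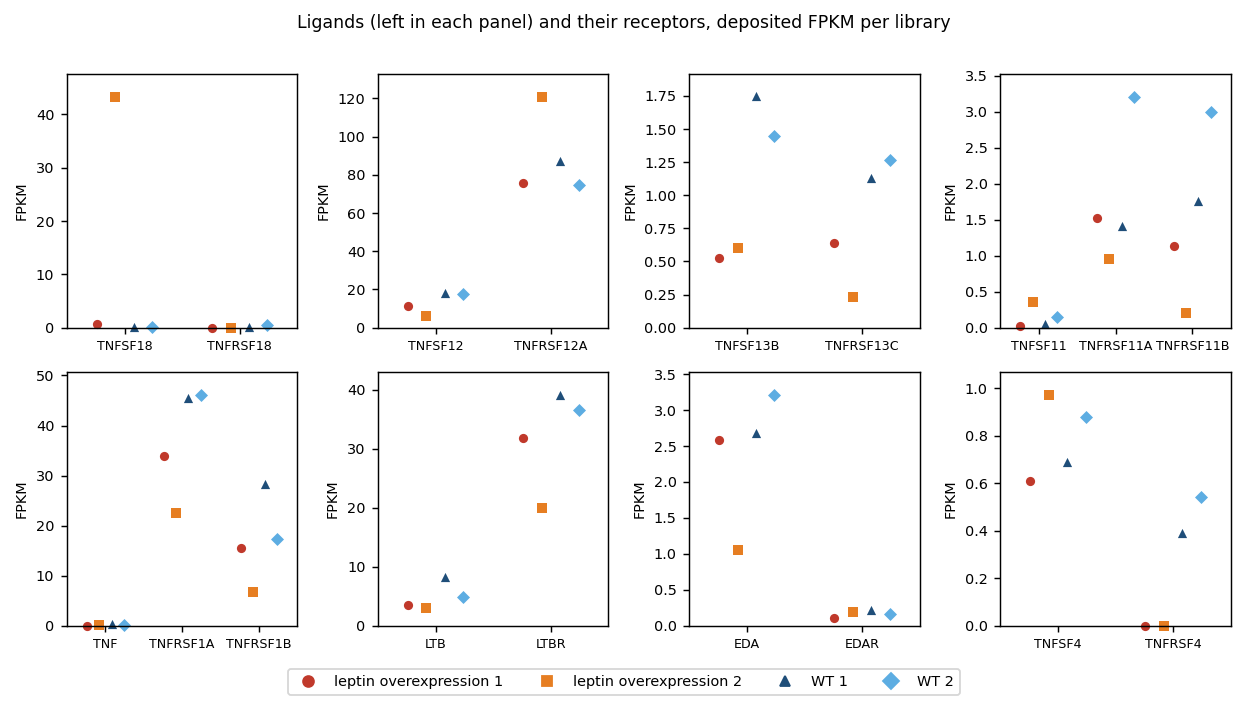
Deposited FPKM of ligands and their receptors in each library, leptin overexpression libraries left of WT libraries, with a separate linear axis in each panel. TNFSF18 reached 43.2 FPKM in leptin overexpression replicate 2, while TNFRSF18 stayed near 0 in all 4 libraries.

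Set side by side per transcript length, the receptors of the TNF and lymphotoxin axes stood well above their ligands. TNFRSF1A had 33.8 and 22.5 FPKM in leptin overexpression, against 45.5 and 46.0 FPKM in WT, where TNF itself had under 1 FPKM in each library. LTBR had 31.8 and 19.98 FPKM in leptin overexpression, against 39.2 and 36.6 FPKM in WT. The deposited FPKM ran lower in leptin overexpression for most genes: the groups lay apart in that direction for 20 of 32 members (62.5%), against 39.7% of all tested genes, and in the other direction for 1 member, against 6.85%.

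All 8 adaptors were tested, and 6 of them lay lower in both leptin overexpression libraries, a separation found for 22.9% of all tested genes. TRAF1 (ENSSSCG00000005511), an NF-kB-induced adaptor of activated lymphocytes, had 5.16 and 3.59 CPM in leptin overexpression, against 8.57 and 9.85 CPM in WT. Its log2 fold change was -1.07 ± 0.50 (unadjusted p = 0.0631, adjusted p = 0.556, edgeR). TRAF2 (ENSSSCG00000005838), which links TNF receptors to NF-kB and JNK, had 14.3 and 13.0 CPM in leptin overexpression, against 22.2 and 23.8 CPM in WT, with -0.75 ± 0.38 (unadjusted p = 0.0821, adjusted p = 0.567, edgeR). For both genes the gap between the genotypes was wider than that between the libraries of a genotype, and TRAF2 ranged only from -0.82 to -0.67 when each library was left out in turn.

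The death complex adaptors differed less. RIPK1 (ENSSSCG00000001009), the kinase at the branch between survival and death, had 38.3 and 36.0 CPM in leptin overexpression, against 44.6 and 46.6 CPM in WT, with -0.30 ± 0.34 (adjusted p = 0.775, edgeR). TRADD (ENSSSCG00000036321), which brings RIPK1 and TRAF2 to TNFRSF1A, had 28.9 and 23.5 CPM in leptin overexpression, against 30.5 and 33.9 CPM in WT, with -0.30 ± 0.37 (adjusted p = 0.787, edgeR; -0.14 without leptin overexpression replicate 2). FADD, the bridge to caspase 8, had 18.9 and 18.2 CPM in leptin overexpression, against 28.1 and 21.8 CPM in WT. TRAF3, a brake on alternative NF-kB signalling, had 18.2 and 12.3 CPM against 19.9 and 18.7 CPM. Each of these 4 adaptors kept the groups apart by a small margin and did not pass the test.

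TRAF6 (ENSSSCG00000038082), the ubiquitin ligase shared with interleukin and Toll-like receptors, was the exception among adaptors that did not overlap. It had 21.0 and 18.6 CPM in leptin overexpression, against 16.01 and 17.7 CPM in WT, with 0.23 ± 0.38 (adjusted p = 0.846, edgeR), and its direction turned to -0.19 on log2(FPKM + 1). TRAF5 overlapped, at 0.914 and 1.57 CPM in leptin overexpression and 2.99 and 0.895 CPM in WT, and its log2 fold change of -0.66 turned to 0.44 without WT replicate 1.

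Rows that carried other symbols, or none, were described in the table as further receptors and ligands of the family and were not counted as members. FAS (ENSSSCG00000010448), the death receptor of atretic follicles, was named from the reference table and had 7.97 and 7.55 CPM in leptin overexpression, against 3.40 and 11.7 CPM in WT, with 0.04 ± 0.62 (adjusted p = 0.984, edgeR). Both leptin overexpression values lay between the WT values. LOC100624226, described as like TNFRSF10A, a receptor of the death ligand TRAIL, had 32.6 and 26.2 CPM in leptin overexpression, against 21.8 and 30.3 CPM in WT, and overlapped. A row described as TRAIL itself, TNFSF10, bore the symbol GHSR (ENSSSCG00000020906), so its identity is uncertain. It had 11.03 and 21.8 CPM in leptin overexpression and 18.3 and 27.2 CPM in WT.

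Genes that act downstream of the receptors lay on both sides of 0 in like numbers. Of 85 tested pathway genes, 20 lay higher (23.5%) and 19 lower (22.4%) without overlap, close to the 22.2% and 22.9% of all tested genes. The median log2 fold change was -0.01, and 0 passed the adjusted threshold of edgeR. At an unadjusted p under 0.05, 7 lay higher (8.24%) and 3 lower (3.53%), against 4.04% and 5.32% of all tested genes. Over 24 genes of canonical NF-kB signalling the median was 0.01, and over 11 of the JNK and p38 branch 0.16. Over 6 genes of ligand and receptor processing it was -0.14. The list kept for the alternative branch had a median of -0.19 over 8 genes. It mixed NFKB2 (-0.28), RELB (0.16) and MAP3K14 (-1.07) with TRAF4, TRAF7, TRAF3IP1, TRAF3IP2 and TRAF3IP3, so its median is not of that branch alone. The lists of downstream death genes and of response genes had medians of 0.14 over 15 genes and -0.12 over 21 genes. On log2(FPKM + 1), where the median over all genes was -0.30, the medians of the death, canonical NF-kB and JNK lists turned to -0.28, -0.30 and -0.22.

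Within the death list CFLAR and XIAP lay higher in both leptin overexpression libraries. CFLAR, which holds caspase 8 in check, had 79.4 and 239 CPM in leptin overexpression, against 35.3 and 57.0 CPM in WT, with 1.79 ± 0.56 (unadjusted p = 0.0114, adjusted p = 0.365, edgeR). Leptin overexpression replicate 2 was its highest library, and without it the log2 fold change was 0.80. XIAP, a caspase inhibitor, had 79.7 and 137 CPM in leptin overexpression, against 57.1 and 59.1 CPM in WT. ADAM10, a protease that sheds membrane ligands, had 106 and 310 CPM in leptin overexpression, against 58.5 and 72.6 CPM in WT, with 1.67 ± 0.53 (adjusted p = 0.367, edgeR) and 0.71 without leptin overexpression replicate 2. Of the 6 genes of ligand and receptor processing, only ADAM10 lay higher without overlap, and 2 lay lower, ADAM17 (-0.24) and RHBDF1 (-0.49).

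In the NF-kB lists TAX1BP1, a partner of the inhibitor TNFAIP3, had 137 and 354 CPM in leptin overexpression, against 105 and 109 CPM in WT. TANK, a TRAF-binding regulator, had 10.7 and 20.3 CPM against 7.12 and 7.34 CPM, and the kinase MAP3K7 had 27.8 and 56.3 CPM against 25.9 and 21.8 CPM. All 3 lay higher in both leptin overexpression libraries, with replicate 2 again the highest, and their adjusted edgeR p-values were 0.524, 0.529 and 0.578. Without replicate 2 their log2 fold changes were 0.37, 0.58 and 0.23, against 1.20, 1.10 and 0.82 with it. MAP3K14, the kinase of the alternative branch, had 5.35 and 2.47 CPM in leptin overexpression, against 8.17 and 8.30 CPM in WT, with -1.07 ± 0.57 (adjusted p = 0.578, edgeR) and -0.60 without leptin overexpression replicate 2. In the JNK branch ATF2 and MAPK8 lay higher without overlap, with log2 fold changes of 0.58 and 0.54.

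The response genes split. PTX3, a matrix protein of the expanding cumulus, had 639 and 1031 CPM in leptin overexpression, against 28.0 and 134 CPM in WT, with 3.36 ± 0.76 (unadjusted p = 0.00205, adjusted p = 0.225, edgeR). TNFAIP6, its partner in that matrix, had 13.5 and 29.9 CPM in leptin overexpression, against 1.91 and 3.82 CPM in WT, with 2.93 ± 0.58 (unadjusted p = 0.000776, adjusted p = 0.209, edgeR). CCL5, a T cell chemokine that is also in the T and NK marker list, had 2.15 and 2.17 CPM in leptin overexpression, against 7.44 and 11.04 CPM in WT, with -2.09 ± 0.55 (unadjusted p = 0.00455, adjusted p = 0.269, edgeR). DESeq2 gave adjusted p-values of 2.7e-05 for PTX3, 0.00042 for TNFAIP6 and 0.0428 for CCL5. All 3 kept the groups well apart.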

How the data were processed

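Bulk poly(A) RNA-seq of 2 leptin overexpression and 2 WT pig ovaries was used. The table gives expected counts of each gene, deposited without scaling to depth, per the file headers. FPKM values, also deposited, were scaled to transcript length and depth by the authors, per the file headers. Tools listed in the submitters' processing notes, without roles, were RSEM, HISAT2, DESeq2, edgeR 3.32.0, StringTie 1.3.1, fastp 0.18.0 and Bowtie2 2.2.8. No coordinates are reported, as the build is not given in the sources used here. The same holds for the use of strand in counting, and an antisense or overlapping gene's reads cannot be told apart from its partner's.

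Expected counts were rounded, filtered with edgeR's filterByExpr, scaled with TMM factors and tested with the quasi-likelihood test of edgeR 4.0.16 (with limma 3.58.1 in R 4.3.3; robust, genotype only, 2 residual degrees of freedom), with Benjamini-Hochberg adjustment over 13937 genes. The scripts were tested on simulated data. The SE was taken from the F statistic (absolute log2 fold change over the root of F). A library with 0 counts of a gene could hold up to 3 counts, which were 0.196 and 0.224 CPM in leptin overexpression and 0.136 and 0.179 CPM in WT; floors and counting intervals cover counting error only. The members, lists and tests were chosen with earlier results of these data known. Full statistics were given for the 3 members with the highest mean FPKM per role, members with unadjusted p under 0.05, up to 4 members per direction with the largest fold change among those whose groups did not overlap, and up to 3 genes per pathway list with the smallest p, of which 1 is not reported here; statistics of other members are added where a ligand or receptor is described with its partner. The alternatives changed the scaling (RLE, upper-quartile), the filter (none, or 1 CPM in 2 libraries) or the tool (DESeq2 1.42.0, limma-voom, and limma-trend on FPKM with 1 or 0.1 added before the log2). Others added a replicate block or left out each library in turn.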

Additional observations from a re-analysis of the deposited data

How the results depend on the processing

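The number of all genes past the adjusted threshold was 4, and it depended on the tool: 11 with upper-quartile factors, 252 without a filter, 305 with DESeq2, 1 with limma-voom, 464 and 487 with limma-trend on log2(FPKM + 1) and log2(FPKM + 0.1), and 0 to 681 when each library was left out. Of the members 0 passed; DESeq2 and limma-trend on log2(FPKM + 0.1) each called 1, TNFSF18, and leaving out libraries gave 0 to 1. At an unadjusted p under 0.05 the 1 member became 0 with upper-quartile factors, without a filter and with limma-voom, 7 and 8 on the 2 FPKM scales, and 0 to 5 when libraries were left out. Whether samples with the same replicate number were paired is not stated in the labels. The correlation of same-numbered deviations was -0.0988, and with crossed numbers it was 0.0988. With 2 libraries per group these are 1 value with its sign turned, which cannot decide the question. With the replicate block 23 genes and 0 members passed the adjusted threshold, and 0 members had an unadjusted p under 0.05. Members whose groups did not overlap numbered 20, 62.5% of those tested against 45.1% of all genes. With a library left out they numbered 27 to 32, or 73.0% to 86.5%, and the share of all genes was 63.8% to 78.7%. The median of -0.55 was -0.78 on log2(FPKM + 0.1) and -0.63 to -0.35 with libraries left out. Upper-quartile factors moved the median of all genes to -0.11, and the FPKM scales moved it to -0.30 and -0.40; relative to all genes the members' median was then -0.53, -0.26 and -0.38, against -0.54. Among members with full statistics, directions turned for EDAR (-0.03 with upper-quartile factors, -0.01 with limma-voom, -0.06 and -0.26 on the FPKM scales, -0.53 to 0.55 with libraries left out), TRAF6 (-0.19 and -0.24 on the FPKM scales), TNFSF4 (-0.00 and -0.01 there), LTBR (-0.31 to 0.04 with libraries left out) and TNFRSF21 (-1.41 to 0.07). Among the others they turned with libraries left out for TNF, TNFSF8, TNFSF9, EDA, TRAF5 and TNFRSF11A, the last also with upper-quartile factors and on the FPKM scales. The cause was not tested. Members with few counts have wide counting intervals, and 12 of the 44 were too low to be tested.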

Other observations

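Genes named for TNF that lie outside the ligand and receptor families were looked at after their values were seen, and only some are given here. Others overlapped between the groups, among them LITAF (log2 fold change -0.06) and TNFAIP1 (-0.36). TNFAIP6, given above with the response genes, lay higher in both leptin overexpression libraries, with 2.93 ± 0.58 (adjusted p = 0.209, edgeR). TNFAIP2 was also in the list of response genes. TNFAIP2, an endothelial and myeloid gene induced by TNF, had 3.26 and 2.91 CPM in leptin overexpression, against 8.85 and 9.67 CPM in WT, with a log2 fold change of -1.58 ± 0.51 (adjusted p = 0.377, edgeR). TNFAIP8L2, an immune cell gene, had 3.13 and 3.06 CPM in leptin overexpression, against 6.31 and 4.66 CPM in WT, and TNFAIP8L1 had 17.9 and 8.44 CPM against 19.96 and 23.8 CPM. TNFAIP8, their relative, had 28.1 and 96.7 CPM in leptin overexpression, against 10.7 and 32.5 CPM in WT, and its groups overlapped. TNFAIP2, TNFAIP8L2, TNFAIP8L1 and TNFAIP8 did not pass the test. Lying lower in both leptin overexpression libraries held for 22.9% of all tested genes, and lying higher held for 22.2%.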
